A study of Mus musculus with 16 samples.

Results

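Germ cells use a set of genes that most other cells keep silent, and 10 of these were followed here in mouse embryonic stem cells that lack 1 or both copies of Nat1. The 10 genes were given by name, as rows of the deposited table, which holds 21977 gene names, and all 10 were found. They comprise the piRNA pathway genes Piwil2, Piwil4, Mael and Ddx4, the RNA-binding protein gene Dazl, the meiotic chromosome genes Smc1b, Hormad1 and Sycp3, and the testis genes Stk31 and Tex101. Ribosome-protected mRNA fragments (RPFs, the pieces of mRNA covered by ribosomes) and total RNA were sequenced from the same 8 cultures, 16 libraries in all. The cultures were 2 of the wild-type (WT) line RF8 (WTex1 and WTex2), 3 heterozygous (Nat1+/-) lines (A7, B4 and C1) and 3 Nat1-null (Nat1-/-) lines (B12, B2 and C3). Every culture was grown on gelatin in stem cell medium and treated with LIF, the cytokine that keeps mouse embryonic stem cells undifferentiated. The mutant cultures carry separate line names, whereas the WT replicates are cultures of 1 line, so the WT spread holds no difference between lines. In comparisons with WT, genotype and line therefore cannot be told apart. The sources used here do not say how the Nat1 alleles were disrupted. P-values measure the spread between these cultures. The Nat1 gene is listed as Eif4g2 in the table and encodes DAP5, a relative of the translation initiation scaffold eIF4G.

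As background, PIWI proteins bind piRNAs, small RNAs that guide the silencing of transposons in germ cells, and Mael, Ddx4 and Tudor-domain proteins serve the same pathway in germ cell granules. Meiotic chromosomes are held by their own cohesin and built into an axis on which the synaptonemal complex joins homologous chromosomes. In embryonic stem cells many promoters of such genes are rich in CG dinucleotides and are kept low by DNA methylation and by a Polycomb complex that contains MGA, MAX and E2F6, factors that recognise the E-box and E2F sites.

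Promoters of the genes are shown first. The part of their motifs in the changes below was not tested. RefSeq's promoter table (build GRCm38.p6) matched 9 of the 10 genes (not Piwil2), and the entry listed first was used where a gene had 2. The window of 300 bases, 250 before the start and 50 from it on, was searched on both strands for the E-box CACGTG, which reads the same on both strands, and for GCGGGA or its reverse complement TCCCGC, an E2F6 type site. No 2 of these matches overlapped. Printed are the 250 bases before the start, 5′ to 3′ on the gene's strand, with the motifs in capitals, for Ddx4 and Mael (lower in Nat1-/- than in Nat1+/-), Hormad1 (higher) and Piwil4 (the lowest relative to Nat1+/- and with neither motif).
Ddx4 (chr13:112652311-112652560, minus strand): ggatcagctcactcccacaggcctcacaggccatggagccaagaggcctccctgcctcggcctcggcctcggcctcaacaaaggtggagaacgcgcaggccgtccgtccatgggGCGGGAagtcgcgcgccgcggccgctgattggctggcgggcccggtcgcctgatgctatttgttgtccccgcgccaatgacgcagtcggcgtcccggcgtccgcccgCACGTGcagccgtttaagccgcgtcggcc
Mael (chr1:166238745-166238994, minus strand): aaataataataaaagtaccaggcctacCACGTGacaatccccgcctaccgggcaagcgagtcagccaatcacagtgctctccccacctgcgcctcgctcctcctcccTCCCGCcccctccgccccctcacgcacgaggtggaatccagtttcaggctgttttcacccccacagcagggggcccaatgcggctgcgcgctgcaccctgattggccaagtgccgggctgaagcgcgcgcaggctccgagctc
Hormad1 (chr3:95559427-95559676, plus strand): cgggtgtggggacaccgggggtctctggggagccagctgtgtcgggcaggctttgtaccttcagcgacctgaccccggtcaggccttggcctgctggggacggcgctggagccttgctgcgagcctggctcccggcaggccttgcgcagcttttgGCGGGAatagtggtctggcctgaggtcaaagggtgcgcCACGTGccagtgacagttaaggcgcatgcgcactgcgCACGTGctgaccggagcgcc
Piwil4 (chr9:14740673-14740922, minus strand): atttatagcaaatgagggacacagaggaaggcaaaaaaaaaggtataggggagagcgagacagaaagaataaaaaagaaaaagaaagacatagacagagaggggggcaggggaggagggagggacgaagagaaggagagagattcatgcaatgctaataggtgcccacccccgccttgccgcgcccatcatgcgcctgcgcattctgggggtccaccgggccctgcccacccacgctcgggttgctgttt

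An E-box was found in 5 of the 9 promoters (Ddx4, Mael, Hormad1, Sycp3 and Stk31), against 7.24% of the first-listed promoters of all 27025 genes in the table. The E2F6 type site was found in 5 of the 9 (Ddx4, Mael, Hormad1, Sycp3 and Smc1b), against 20.0% of all, and both motifs in 4 of the 9, against 2.05% of all. In Hormad1 the E-boxes began 57 and 20 bases before the start, in Sycp3 64 and 43, in Stk31 55, in Ddx4 29 and in Mael 223. The E2F6 type sites began 136 bases before the start in Ddx4, 95 in Hormad1, 143 in Mael (with a further match at base 12 of the transcript), 147 in Sycp3 and 47 in Smc1b. The promoters held 38 (Ddx4), 29 (Smc1b and Stk31), 28 (Dazl), 24 (Mael and Hormad1), 19 (Tex101), 15 (Sycp3) and 11 (Piwil4) CG dinucleotides, against a median of 7 and an upper quartile of 21 over all promoters. Among the 6759 promoters at or above that quartile, 11.7% held the E-box, 50.1% the E2F6 type site and 5.90% both. These are matches of letters and not measured binding sites.

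RPF libraries held from 17.5 M up to 23.8 M reads (M, mega-reads), and total RNA libraries from 13.2 M up to 42.6 M, the libraries of WTex1, WTex2 and B12 being deeper than the other 5. Values are normalised reads, that is, reads divided by 1 size factor per library, set within each assay. Eif4g2, the targeted gene, had 17666 and 13862 normalised RPF reads in WT, 7275 to 10261 in Nat1+/- and 922 to 1114 in Nat1-/-, without overlap between genotypes (two-sided exact permutation p = 0.1 for each pair of genotypes, the smallest these group sizes allow). Its total RNA overlapped between Nat1-/- (5085 to 12249) and Nat1+/- (10674 to 15335; exact permutation p = 0.3). All 10 embryonic stem cell markers examined (Pou5f1, Nanog, Sox2 and others) were above the mean of 10 normalised reads needed for testing, with summed RPF values of 99691 to 116375 in WT, 117906 to 139533 in Nat1+/- and 189225 to 215186 in Nat1-/-. Markers of late germ cells were nearly absent, with 1 of 10 spermatid markers (Ldhc) and 1 of 10 oocyte markers (Zp3) above that mean in RPF. Fibroblast markers summed in RPF to 3601 and 10729 for WT, 608, 1546 and 581 for Nat1+/-, and 190.0, 163 and 253 for Nat1-/-. Col1a1, Col1a2 and Acta2 made up most of the sums in WT, which were the highest, while Thy1 and Pdgfrb had higher mean RPF reads in Nat1+/- (269 and 211) than in WT (142 and 139). In bulk cultures a lower value of a gene below can reflect fewer cells with a transcript or less transcript per cell, which cannot be told apart.

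**Figure D1:**
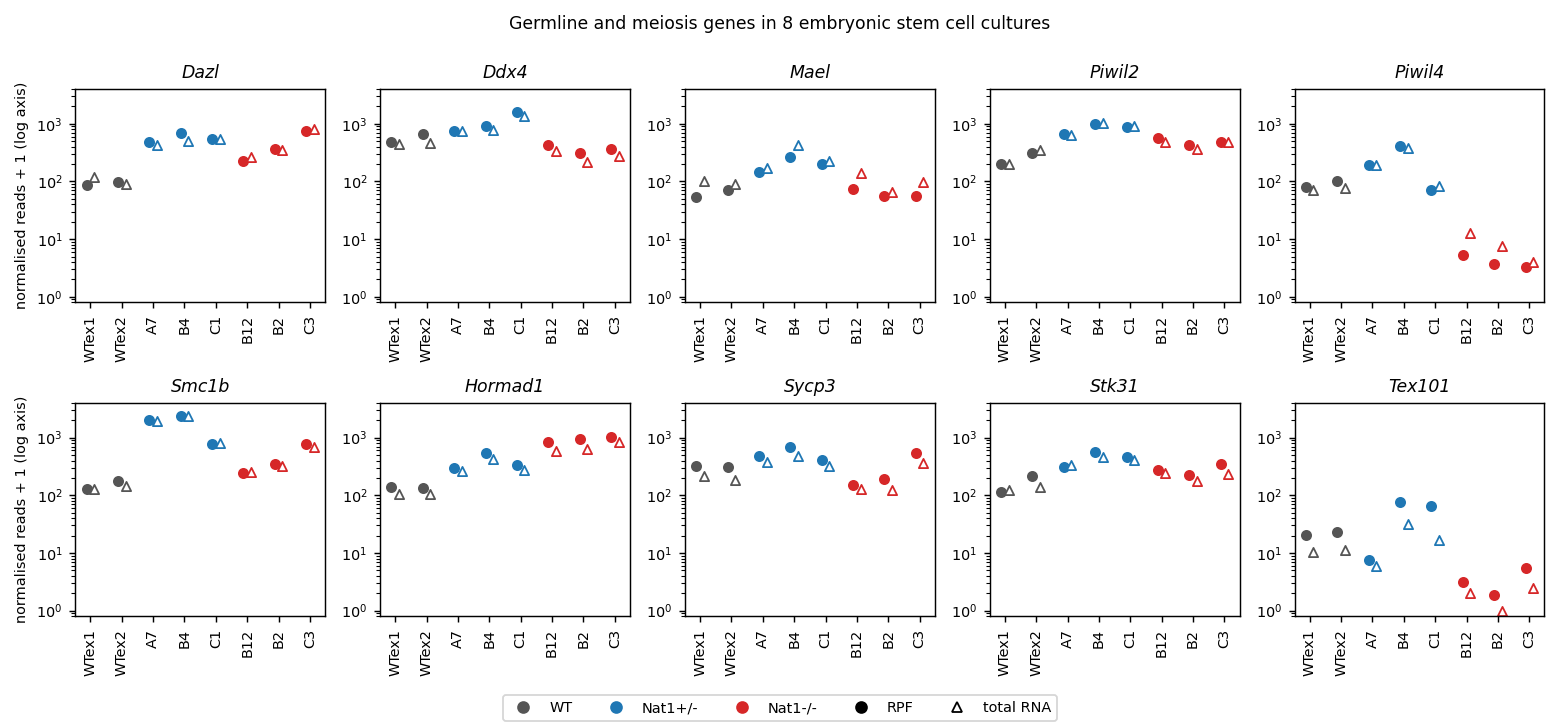
Normalised reads + 1 (log axis, the same range in each panel) of the 10 genes in the 8 cultures, with RPF as filled circles and total RNA as open triangles, 1 point per library. Hormad1 is highest in the 3 Nat1-/- cultures, Piwil4 and Tex101 lowest there, and most of the others are highest in Nat1+/-.

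Piwil4 (MIWI2), the nuclear PIWI protein that directs DNA methylation of transposons in fetal male germ cells, was nearly lost in Nat1-/-. Its normalised RPF reads, given here and below in the order WTex1 and WTex2, A7, B4 and C1, and B12, B2 and C3, were 80.0 and 103 for WT, 191, 416 and 71.4 for Nat1+/-, and 4.32, 2.66 and 2.28 for Nat1-/-. In total RNA the cultures had 69.0 and 76.8 for WT, 189, 376 and 81.3 for Nat1+/-, and 11.9, 6.66 and 2.98 for Nat1-/-. The Nat1-/- values lay below all 5 other cultures in both assays, and B4 was the highest culture. They rest on 4, 3 and 2 RPF reads and 23, 5 and 2 total RNA reads. The mean of Nat1+/- was 73.2-fold that of Nat1-/- in RPF (38.6 to 160.2, exact 95% Poisson interval of the 9 reads, counting error only) and 30.0-fold in total RNA (21.0 to 44.5, for 30 reads). Without B4 these folds were 42.5 and 18.9. Fold changes are on log2(value + 1), where changes of low values come out too small. By this measure Piwil4 changed in Nat1-/- against Nat1+/- by -5.49 ± 0.55 in RPF (SE; limma adjusted p = 1.5e-04) and by -4.62 ± 0.56 in total RNA (adjusted p = 3.0e-04), and against WT by -4.52 and -3.33 (adjusted p = 6.3e-04 and 0.00272). The difference between Nat1+/- and WT, 0.97 ± 0.62 in RPF and 1.29 ± 0.63 in total RNA, did not pass (adjusted p = 0.31 and 0.194). C1 lay below WT in RPF and above it in total RNA, whereas A7 and B4 were higher. Piwil4 reached the mean of 10 needed for testing through WT and Nat1+/- alone, so its passing as lower in Nat1-/- is not support.

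Piwil2 (MILI), a PIWI protein that cuts transposon RNA, showed a smaller change and in another order. RPF reads were 199.6 and 306 for WT, 660.4, 995 and 879.6 for Nat1+/-, and 569, 425 and 479.6 for Nat1-/-. Total RNA reads were 201 and 347 for WT, 642, 1049 and 912 for Nat1+/-, and 489.6, 369 and 491 for Nat1-/-. The genotypes did not overlap in either assay, with WT lowest, Nat1-/- between and Nat1+/- highest. Against WT, Piwil2 rose in Nat1+/- by 1.75 ± 0.24 in RPF (log2, SE; limma adjusted p = 0.0082) and 1.68 ± 0.28 in total RNA (adjusted p = 0.0117). In Nat1-/- it was higher than in WT in RPF (0.98 ± 0.24, adjusted p = 0.0119), while the total RNA difference of 0.75 ± 0.28 did not pass (adjusted p = 0.0578). From Nat1+/- to Nat1-/- it fell by 0.77 in RPF and 0.93 in total RNA (adjusted p = 0.0205 and 0.0143). That RPF call was lost without B4, C1 or B2 (adjusted p = 0.0752, 0.0618 and 0.0856), the one in total RNA without B4 or B2 (0.0602 and 0.0646), and the RPF call against WT without WTex1 (0.145).

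Mael (Maelstrom), a piRNA pathway protein needed for transposon silencing, was highest in Nat1+/- with overlapping values in WT and Nat1-/-. Mael RPF reads came to 52.0 and 70.7 for WT, 143, 266 and 196 for Nat1+/-, and 73.4, 54.2 and 55.8 for Nat1-/-. The total RNA reads came to 103 and 90.7 for WT, 168, 428 and 223 for Nat1+/-, and 141, 65.3 and 98.4 for Nat1-/-. In both assays all 3 Nat1+/- cultures were above all 5 others, and B4 was the highest. Mael fell from Nat1+/- to Nat1-/- by 1.68 ± 0.28 in RPF (log2, SE; limma adjusted p = 0.0019) and by 1.37 ± 0.37 in total RNA (adjusted p = 0.0143). The total RNA call was lost without B4 or B2 (adjusted p = 0.051 and 0.0632). Against WT it rose in Nat1+/- in RPF (1.67 ± 0.31, adjusted p = 0.019; 0.0545 with the replicate block), and the total RNA difference of 1.38 ± 0.41 did not pass (adjusted p = 0.0596). Between Nat1-/- and WT the difference was below 0.01 in size in RPF with a 95% interval of -0.69 to 0.69, and likewise in total RNA, with an interval of -0.90 to 0.91.

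Ddx4, the germ cell RNA helicase homologous to Drosophila Vasa, was lowest in Nat1-/-. RPF reads of Ddx4 were 493 and 674 for WT, 744, 929.5 and 1597 for Nat1+/-, and 429, 311 and 363 for Nat1-/-. Its total RNA reads were 443 and 467 for WT, 738, 792 and 1357 for Nat1+/-, and 339, 216 and 276 for Nat1-/-. In both assays the 3 Nat1-/- cultures lay below WT and WT below Nat1+/-, C1 being the highest culture. The fall from Nat1+/- to Nat1-/- was -1.50 ± 0.27 in RPF (log2, SE; limma adjusted p = 0.00283) and -1.76 ± 0.25 in total RNA (adjusted p = 6.0e-04). Relative to WT, Nat1-/- differed by -0.66 ± 0.30 and -0.74 ± 0.28, which did not pass (adjusted p = 0.115 and 0.0609). In total RNA it passed in 5 of the 16 alternatives, among them equal library sums (0.0364) and DESeq2 (0.0415). Nat1+/- exceeded WT in total RNA by 1.02 ± 0.28 (adjusted p = 0.0441), a call lost with equal library sums, with the replicate block, without the filter on low values, or without A7, B4, C1 or B2 (adjusted p from 0.0551 to 0.11). In RPF the difference of 0.84 ± 0.30 did not pass (adjusted p = 0.0939).

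Dazl, an RNA-binding protein that promotes translation in germ cells, separated the mutant lines from WT. Dazl RPF reads were 85.5 and 97.8 for WT, 474, 696 and 536 for Nat1+/-, and 223, 359 and 743 for Nat1-/-. Its total RNA gave 119.7 and 89.5 for WT, 428, 507 and 542 for Nat1+/-, and 265, 350.4 and 801 for Nat1-/-. All 6 mutant cultures were above both WT cultures, and C3 stood apart from B12 and B2 by exceeding all 3 Nat1+/- cultures. Dazl RPFs were 6.21-fold WT in Nat1+/- (2.61 ± 0.41 log2, SE; limma adjusted p = 0.0135) and 4.82-fold in Nat1-/-, or 3.18-fold without C3 (all cultures 2.08 ± 0.41, adjusted p = 0.00386). In total RNA the changes were 2.23 ± 0.39 (adjusted p = 0.0134) and 2.01 ± 0.39 (adjusted p = 0.00298). Nat1-/- did not differ from Nat1+/- beyond the spread (-0.52, 95% interval -1.34 to 0.29, adjusted p = 0.289 in RPF; -0.22, interval -0.99 to 0.55, adjusted p = 0.645 in total RNA). Without C3 that difference was -0.98 in RPF and -0.68 in total RNA and passed (adjusted p = 0.0119 and 0.026).

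Smc1b, the meiosis-specific cohesin subunit SMC1β, had the widest rise of the 10 genes between WT and Nat1+/-. Smc1b RPF reads reached 127 and 175 for WT, 2021, 2418 and 764 for Nat1+/-, and 245, 349.9 and 768 for Nat1-/-. Its total RNA reads reached 127 and 144 for WT, 1954, 2345 and 819 for Nat1+/-, and 253, 317 and 687 for Nat1-/-. A7 and B4 were far above C1, which lay beside C3, and WT was lowest throughout. Nat1+/- had 11.5-fold the WT mean in RPF (3.37 ± 0.53 log2, SE; limma adjusted p = 0.0135) and 12.6-fold in total RNA (3.52 ± 0.47, adjusted p = 0.00871); the RPF call was lost without A7 (0.0572). From Nat1+/- to Nat1-/- Smc1b fell by 1.94 in RPF and 2.03 in total RNA (adjusted p = 0.0116 and 0.00439), though C3 overlapped C1 in RPF. Nat1-/- exceeded WT by 1.49 ± 0.47 in total RNA (adjusted p = 0.032); the RPF difference of 1.43 ± 0.53 did not pass (adjusted p = 0.0615). The total RNA call was lost with the replicate block or without B2, C3, WTex1 or WTex2 (adjusted p from 0.0535 to 0.157).

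Hormad1, a HORMA-domain protein of unsynapsed meiotic chromosome axes, was the only one of the 10 that passed as higher in Nat1-/- than in Nat1+/-. Hormad1 RPF reads were 138 and 136 for WT, 301, 534 and 329.6 for Nat1+/-, and 830.3, 929 and 1013 for Nat1-/-. Hormad1 total RNA reads were 103 and 106 for WT, 261, 422 and 271 for Nat1+/-, and 590.0, 641 and 830.4 for Nat1-/-. The genotypes formed 3 separate steps in both assays, WT below Nat1+/- below Nat1-/-, with C3 highest and the WT cultures close to each other. From WT to Nat1+/- it rose by 1.45 ± 0.24 in RPF (log2, SE; limma adjusted p = 0.0149) and 1.56 ± 0.25 in total RNA (adjusted p = 0.0115). From Nat1+/- to Nat1-/- it rose by a further 1.29 ± 0.21 (adjusted p = 0.00196) and 1.13 ± 0.22 (adjusted p = 0.00323). Nat1-/- thus had 6.77-fold the RPFs and 6.56-fold the RNA of WT (adjusted p = 6.9e-05 and 6.2e-05), and these Nat1-/- calls, against WT and against Nat1+/-, were kept with each culture left out and under each other alternative.

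Sycp3, a structural protein of the synaptonemal complex's lateral elements, differed widely among the Nat1-/- cultures. The RPF reads of Sycp3 were 315 and 311 for WT, 474, 695 and 414 for Nat1+/-, and 151, 191 and 551 for Nat1-/-. The total RNA reads were 216 and 185 for WT, 379, 472 and 325 for Nat1+/-, and 126, 123 and 358 for Nat1-/-. B12 and B2 were the lowest of the 8 cultures and C3 lay among Nat1+/- values. The difference between Nat1-/- and Nat1+/- was -1.03 ± 0.41 in RPF (log2, SE; limma adjusted p = 0.0776) and -1.13 ± 0.37 in total RNA (adjusted p = 0.0336), so that only total RNA passed. Without C3 it was -1.59 in RPF (adjusted p = 0.00103), and the difference from WT then passed too (-0.88 and -0.68, adjusted p = 0.0265 and 0.0397). In total RNA the call against Nat1+/- was lost with edgeR (0.061), in the 5 cultures of shallow total RNA (0.119) and without A7, B4, B12 or B2 (adjusted p from 0.0732 to 0.13). With all cultures Sycp3 read -0.31 and -0.18 in Nat1-/- and 0.71 and 0.95 in Nat1+/- relative to WT (RPF and total RNA), and did not pass (adjusted p = 0.631, 0.771, 0.318 and 0.15).

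Stk31, a testis kinase-like protein with a Tudor domain, rose in Nat1+/-. Stk31 RPF reads were 113 and 216 for WT, 314, 566 and 453 for Nat1+/-, and 274, 224 and 349 for Nat1-/-. Stk31 total RNA reads were 121 and 139 for WT, 333, 455 and 408 for Nat1+/-, and 242, 179 and 233 for Nat1-/-. In total RNA the genotypes did not overlap, with Nat1-/- between WT and Nat1+/-, while in RPF C3 was above A7. Nat1+/- exceeded WT by 1.46 ± 0.33 in RPF (log2, SE; limma adjusted p = 0.0286) and 1.60 ± 0.22 in total RNA (adjusted p = 0.00915); the RPF call was lost with the replicate block or without A7, B4, C1 or B2 (adjusted p from 0.0512 to 0.0713). From Nat1+/- to Nat1-/- it fell by 0.87 ± 0.20 in total RNA (adjusted p = 0.00687), and the RPF difference of -0.64 ± 0.29 did not pass (adjusted p = 0.118). Nat1-/- was higher than WT in total RNA by 0.73 ± 0.22 (adjusted p = 0.0268), a call lost with equal library sums, with the replicate block and without B12, WTex1 or WTex2 (adjusted p from 0.0574 to 0.173); in RPF it read 0.82 ± 0.33 (adjusted p = 0.0788).

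Tex101, a germ cell surface glycoprotein, had the fewest reads. Tex101 RPF reads were 19.4 and 22.3 for WT, 6.51, 77.0 and 65.1 for Nat1+/-, and 2.16, 0.888 and 4.56 for Nat1-/-. Its total RNA reads were 9.21 and 10.3 for WT, 4.90, 30.2 and 15.7 for Nat1+/-, and 1.04, 0 and 1.49 for Nat1-/-, a mean of 9.11 that lies below the minimum for testing. B4 and C1 were far above A7, which lay below both WT cultures, and the Nat1-/- cultures were lowest. With 2, 1 and 4 RPF reads in B12, B2 and C3, the Nat1+/- mean was 19.5-fold that of Nat1-/- (9.48 to 48.6, exact 95% Poisson interval, counting error only), and 32.5-fold without C3. Tex101 reached the minimum in RPF through B4, C1 and WT alone, so its passing the test is not support, and it is left out of the counts of genes that fell or rose below. Piwil4, whose passing as lower in Nat1-/- is likewise not support, is kept in those counts. The RPF change was -3.40 ± 0.84 against Nat1+/- (log2, SE; limma adjusted p = 0.012; 0.0512 without B2) and -2.76 ± 0.94 against WT (adjusted p = 0.0444). The latter was lost with a pseudocount of 5 and without B12, B2, C1, WTex1 or WTex2 (adjusted p from 0.0531 to 0.171). Nat1+/- and WT differed by 0.63 ± 0.94 (adjusted p = 0.677).

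Between Nat1-/- and Nat1+/-, which asks what loss of the remaining allele changes, 5 of the 9 genes other than Tex101 fell in RPF (Ddx4, Mael, Piwil2, Piwil4 and Smc1b) and Hormad1 rose, against 18.6% of all tested genes lower and 17.6% higher (2434 and 2303 of 13110; limma, Benjamini-Hochberg over all genes tested). In total RNA 7 of the same 9 fell (Ddx4, Mael, Piwil2, Piwil4, Smc1b, Stk31 and Sycp3) and Hormad1 rose, against 20.2% lower and 19.8% higher (2789 and 2730 of 13813). The genes and the lists below were chosen with earlier results of these data known. Counts set beside shares of all genes are therefore descriptions, here and below. Piwil4, whose passing as lower is not support, is among the genes that fell in these counts and in those below with cultures left out. The median change of the 9 genes other than Tex101 was -1.03 in RPF and -1.13 in total RNA (log2), beside 0.02 and 0.01 over all genes tested. With C3 left out, 7 of the 9 fell in RPF (Dazl and Sycp3 added) and 8 of the 9 in total RNA (Dazl added), and with B4 left out 4 of the 9 fell in each assay. Over all genes, calls in these fits were counted in either direction only, which is not the same measure as the falls above. These calls too were more without C3 and fewer without B4. They were 5464 of 13155 (RPF) and 6261 of 13880 (total RNA) without C3, and 3457 of 13023 and 3998 of 13699 without B4. In the 5 cultures of shallow total RNA, 5 of the 9 fell in RPF and 6 of the 9 in total RNA (without Sycp3), and Hormad1 rose in both. There 3637 of 12929 and 4174 of 13679 genes were called in either direction. In the same comparison 5 of 10 embryonic stem cell markers rose in RPF and 8 of 10 in total RNA, with 0 lower. Of the fibroblast markers, 5 of 7 tested in RPF fell (sums of 581 to 1546 in Nat1+/- and 163 to 253 in Nat1-/-), and of the oocyte markers the 1 tested, Zp3, fell (sums of 65.1 to 177 and 25.1 to 35.6). The spermatid markers had sums of 82.9 to 306 and 74.5 to 90.0, the 1 tested did not pass, and Prm1 was at 0 in all RPF libraries. The part of such cells in the result was not tested.

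Between Nat1+/- and WT, where loss of 1 allele and line cannot be told apart, 6 of the 9 genes other than Tex101 rose in RPF (Dazl, Hormad1, Mael, Piwil2, Smc1b and Stk31) and 0 fell, against 5.35% of all tested genes higher and 5.13% lower (701 and 673 of 13110; limma). In total RNA 6 of 9 rose (Dazl, Ddx4, Hormad1, Piwil2, Smc1b and Stk31) and 0 fell, against 4.6% higher and 5.41% lower (636 and 747 of 13813). Their median changes were 1.46 and 1.56 (log2), beside -0.01 and -0.02 over all genes. In total RNA both WT libraries (42.6 M and 33.6 M reads) were deeper than all Nat1+/- libraries (13.2 M to 14.8 M). Depth and genotype cannot be told apart there. Calls in this comparison needed both WT cultures. Without WTex1 0 genes of 13005 in RPF and of 13740 in total RNA were called at all, and without WTex2 23 of 13028 and 0 of 13759, Piwil2 in RPF (adjusted p = 0.0374) being the one of the 10 that still passed (limma; the lone WT culture is assumed to vary like the other groups). At an unadjusted p under 0.05 the counts of all genes were 1787 and 2006 without WTex1 and 2967 and 2959 without WTex2. In each of these fits every tested one of the 10 genes kept a value above 0, with Smc1b at 3.14 and 3.60 in RPF without WTex1 and without WTex2. The fits reuse the Nat1+/- cultures and the other WT culture, and the share of all genes above 0 was not counted. The kept direction is therefore not support. Of 7 tested fibroblast markers (RPF) 5 fell in Nat1+/-, their sums being 3601 in WTex1 and 10729 in WTex2 against 581 to 1546 in Nat1+/-, and their part in this difference was not tested.

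Between Nat1-/- and WT the 10 genes divided. In RPF Dazl, Hormad1 and Piwil2 rose and Piwil4 fell, 3 and 1 of the 9 other than Tex101, against 16.5% of all tested genes higher and 18.3% lower (2167 and 2400 of 13110; limma). In total RNA Dazl, Hormad1, Smc1b and Stk31 rose and Piwil4 fell, 4 and 1 of 9, against 16.2% higher and 18.9% lower (2231 and 2608 of 13813). The medians were 0.82 and 0.73 (log2), beside 0.03 and 0.02. WT and Nat1+/- alone carried Piwil4 past the minimum for testing, so its passing as lower is not support, here or under the alternatives. Setting library sums equal moved the median of all genes by -0.11 in RPF and -0.12 in total RNA. Against that shift the calls of Dazl (2.08 and 2.01), Hormad1 (2.75 and 2.69) and Piwil4 (-4.52 and -3.33) were kept in each alternative. They were the 3 genes of the 10 that were called in both assays without WTex1. Nat1-/- had fibroblast marker sums of 163 to 253 (RPF), below both WT cultures, with 6 of 7 tested markers lower, and the part of this in the difference was not tested. The comparisons share cultures with one another, so their values are not independent.

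**Figure D2:**
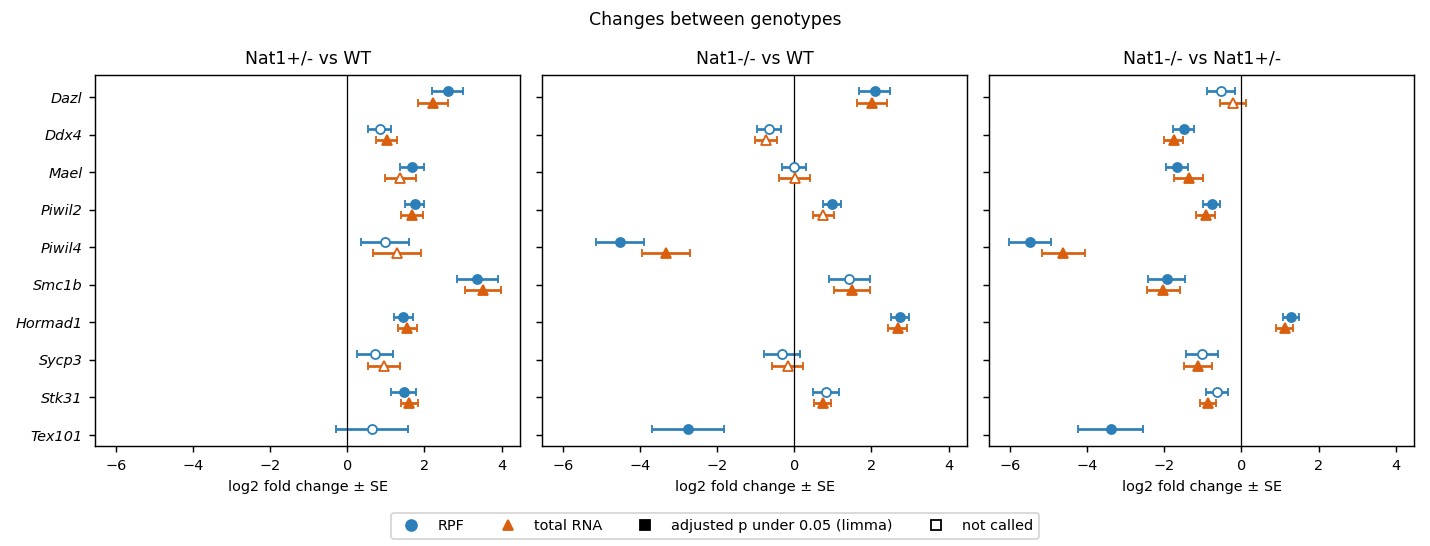
Log2 fold change ± SE (limma, on log2(value + 1)) of each gene in the 3 comparisons of genotypes, for RPF (circles) and total RNA (triangles), filled where the adjusted p is under 0.05; Tex101 was not tested in total RNA. Changes lie to the right of 0 in Nat1+/- against WT, and to the left in Nat1-/- against Nat1+/- except for Hormad1.

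The order of cultures within a genotype was shared by many of the genes. Among Nat1+/- cultures B4 was the highest for 9 of 10 genes in RPF and 8 of 10 in total RNA, and A7 the lowest for 7 of 10 in both. Among Nat1-/- cultures C3 was the highest for 6 of 10 in both assays and B12 for the other 4. The order was not counted over all genes, so these counts do not show an order particular to the 10 genes. The summed RPF values of the 10 genes were 1623 and 2111 for WT, 5329, 7592 and 5307 for Nat1+/-, and 2802, 2846 and 4329 for Nat1-/-. B4 also had the highest fibroblast marker sum of the Nat1+/- cultures (1546 RPF, against 608 and 581) and the highest Ldhc, the sperm lactate dehydrogenase gene (285 RPF, against 77.0 and 77.7), and the part of other cells in its values was not tested. The pattern over the 8 cultures most like that of the 9 tested genes in total RNA, by Pearson correlation with the mean of their standardised values among 11595 genes with a mean of at least 50, was that of Ube2t (r = 0.978), Cbln1 (0.975), Cenpf (0.974), Mettl15 (0.972) and Creg1 (0.971). These are descriptions over 8 cultures that share their genotype structure.

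Footprints were compared with RNA within each culture. The RPF to total RNA ratio of Piwil2 was 0.993 and 0.881 for WT, 1.03, 0.948 and 0.964 for Nat1+/-, and 1.16, 1.15 and 0.978 for Nat1-/-. For Smc1b it was 1.01 and 1.22 for WT, 1.03, 1.03 and 0.933 for Nat1+/-, and 0.969, 1.10 and 1.12 for Nat1-/-, and for Hormad1 1.33 and 1.27 for WT, 1.15, 1.27 and 1.22 for Nat1+/-, and 1.41, 1.45 and 1.22 for Nat1-/-. These 3 genes had the narrowest ranges of the ratio among the 10. Across the 8 cultures the ratio ranged from 0.714 to 1.37 for Dazl, 1.01 to 1.44 for Ddx4, 0.507 to 0.882 for Mael, 1.20 to 1.68 for Sycp3 and 0.937 to 1.56 for Stk31. The genes with the fewest Nat1-/- reads had wider ranges. Tex101 ran from 1.33 to 4.15, with no value in B2, where total RNA was 0. Piwil4 ratios were 1.16 and 1.34 for WT, 1.01, 1.11 and 0.877 for Nat1+/-, and 0.363, 0.400 and 0.764 for Nat1-/-. Translational efficiency (TE), tested as a difference between genotypes in the RPF to total RNA ratio, did not pass for any of the 9 genes tested in any comparison (limma, 0 calls; 0 at an unadjusted p under 0.05). Over all 12933 genes the share called was 0.58% for Nat1-/- against Nat1+/-, 0.00773% for Nat1-/- against WT and 0% for Nat1+/- against WT, and the shares at an unadjusted p under 0.05 were 10.5%, 2.54% and 5.13%, so that 0 of 9 is no result about these genes. With a culture term, which pairs both libraries of a culture, the shares called were 15.8%, 1.22% and 1.13%. Again 0 of the 9 genes passed, the lowest adjusted p being 0.0778, 0.154 and 0.312, and 1 of them (Piwil4) had an unadjusted p under 0.05 in each comparison with Nat1-/-, where the shares of all genes were 32.4% and 12.1%. For Nat1-/- against Nat1+/- the TE difference of Hormad1 was 0.16 (log2), with a 95% interval of -0.51 to 0.84, or -0.10 to 0.43 with the culture term. For Ddx4 it was 0.26 (-0.58 to 1.10, or -0.02 to 0.54) and for Smc1b 0.09 (-1.45 to 1.63, or -0.18 to 0.35). Piwil4 read -0.86 (-2.72 to 0.99, or -1.54 to -0.19). Eif4g2 itself changed by -2.38 (adjusted p = 0.0155, or 3.0e-04 with the culture term).

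**Figure D3:**
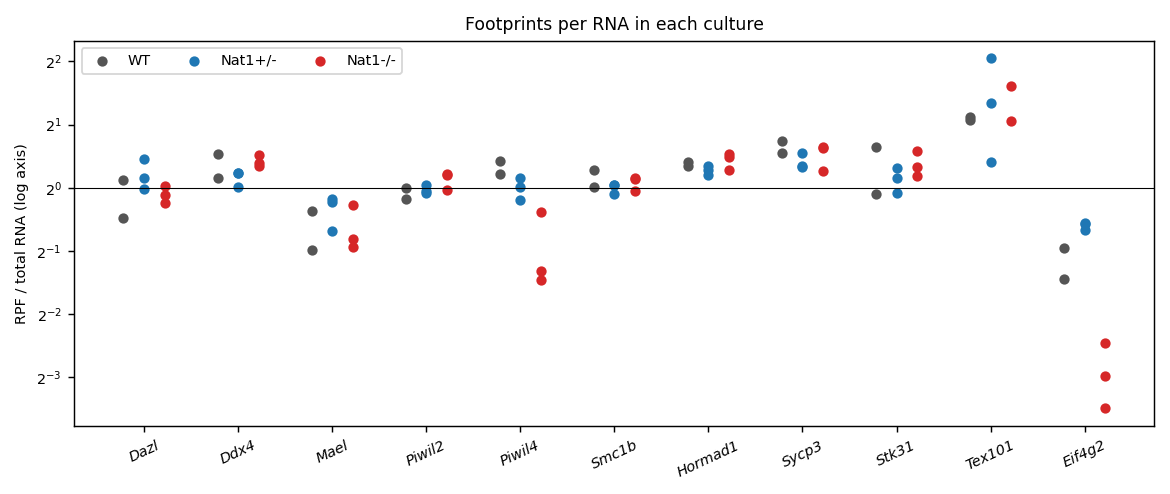
RPF divided by total RNA (log axis) for each gene and, for comparison, the targeted gene Eif4g2, 1 point per culture, coloured by genotype; Tex101 has no point for B2, where total RNA is 0. Genotypes overlap for most genes, and Eif4g2 is far lower in Nat1-/-. Piwil4 is lower there too (0.363, 0.400 and 0.764), but on 4, 3 and 2 RPF reads and 23, 5 and 2 total RNA reads, and its TE difference did not pass.

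Other genes of the same pathways were read from lists. Of 18 further piRNA pathway genes 16 were tested, and in Nat1-/- against Nat1+/- 10 fell and 0 rose in RPF and 8 fell and 0 rose in total RNA, against 18.6% of all genes lower and 17.6% higher in RPF and 20.2% and 19.8% in total RNA (limma; medians -1.72 and -1.94, log2). The Tudor-domain genes Tdrd12 (-3.19 ± 0.29 in RPF, SE; adjusted p = 9.3e-05), Tdrd5 (-2.68 ± 0.33, adjusted p = 4.3e-04) and Tdrkh (-3.32 ± 0.41, adjusted p = 4.3e-04) and the helicase gene Ddx25 (-2.40 ± 0.34, adjusted p = 8.1e-04) were the 4 chosen by the smallest adjusted p in either assay. Tdrd12, a piRNA biogenesis factor, had RPF reads of 1408 and 1718 for WT, 2076, 2634 and 1435 for Nat1+/-, and 167, 179 and 339 for Nat1-/-. Its Nat1-/- values lay far below WT as well (-2.84 ± 0.33, adjusted p = 2.7e-04). Against WT, 2 of the 16 rose and 0 fell in Nat1+/- in each assay (12.5% higher, beside 5.35% and 4.6% of all genes), and in Nat1-/- the RPF calls were 1 higher and 7 lower (all genes 16.5% and 18.3%) and the total RNA calls 1 higher and 6 lower (all genes 16.2% and 18.9%).

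Of 28 meiotic chromosome genes 25 were in the table under the names used, and 22 were tested in RPF and 23 in total RNA. In Nat1-/- against Nat1+/- 10 fell and 0 rose in RPF and 13 fell and 0 rose in total RNA, 45.5% and 56.5% lower beside 18.6% and 20.2% of all genes (limma; medians -0.94 and -1.22, log2). Meiob, a single-stranded DNA binding protein of meiotic recombination, changed by -4.12 ± 0.66 in RPF (adjusted p = 0.00165), from 194, 342 and 94.5 in Nat1+/- to 4.32, 7.10 and 27.3. Tex15, a factor of meiotic recombination and transposon silencing, changed by -2.15 ± 0.22 (adjusted p = 1.8e-04), Meioc, which sustains meiotic prophase, by -2.44 ± 0.33 (adjusted p = 7.1e-04) and Mei4, a factor of meiotic double-strand breaks, by -1.95 ± 0.25 (adjusted p = 5.3e-04). Relative to WT, 5 rose in RPF and 4 in total RNA in Nat1+/-, with 0 lower (22.7% and 17.4% higher, beside 5.35% and 4.6% of all genes), and in Nat1-/- the RPF calls were 2 higher and 5 lower (9.09% and 22.7%, beside 16.5% and 18.3% of all genes) and the total RNA calls 3 higher and 6 lower (13.0% and 26.1%, beside 16.2% and 18.9%).

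Of the germ cell specification and maintenance genes, 2 were higher and 7 lower of 15 in RPF in Nat1-/- against Nat1+/- (13.3% and 46.7%, beside 17.6% and 18.6% of all genes). In total RNA 1 was higher and 6 lower of 16 (6.25% and 37.5%, beside 19.8% and 20.2%; limma; medians -0.72 and -0.53, log2). Dppa3, a maternal and primordial germ cell chromatin factor, changed by -4.02 ± 0.39 in RPF (adjusted p = 1.2e-04) and the germ cell transcription factor gene Tfap2c by -2.19 ± 0.31 (adjusted p = 8.8e-04). Tex19.1, which restrains retrotransposons, changed by -2.14 ± 0.39 (adjusted p = 0.00306). Prdm14, a regulator of primordial germ cells and naive pluripotency, rose by 1.07 in RPF and 1.52 in total RNA (adjusted p = 0.00756 and 2.8e-04). Its RPF reads, 261 and 493 for WT, 593, 522 and 638 for Nat1+/-, and 1031, 1158 and 1533 for Nat1-/-, placed the 3 Nat1-/- cultures above all others, as for Hormad1.

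Among 19 genes of the complexes known to repress germline genes, all tested, 1 was higher and 2 lower in RPF between Nat1-/- and Nat1+/- (5.26% and 10.5%, beside 17.6% and 18.6% of all genes). In total RNA 2 were higher and 2 lower (10.5% each, beside 19.8% and 20.2%; limma; medians -0.02 and -0.05, log2). Dnmt3a, a de novo DNA methyltransferase, fell by 2.24 ± 0.18 in RPF and by 2.42 ± 0.16 in total RNA (SE; adjusted p = 5.0e-05 and 1.6e-05), with RPF reads of 2884 and 2217 for WT, 1862, 1939 and 1519.8 for Nat1+/-, and 458, 310.0 and 368 for Nat1-/-. Max, the E-box binding partner of MGA and MYC, rose by 0.67 and 1.04 (adjusted p = 0.00777 and 8.0e-04). Yaf2, a Polycomb subunit, fell by 1.60 and 1.26 (adjusted p = 0.00225 and 0.0121), while its relative Rybp rose in total RNA (0.52 ± 0.17, adjusted p = 0.0352) with an RPF difference of -0.65 ± 0.27 that did not pass (adjusted p = 0.0837). Mga and E2f6 read -0.16 and -0.25 in RPF and did not pass (adjusted p = 0.647 and 0.281); they were named after their values were seen, because the motifs above are those of their complex. In Nat1+/- against WT there were 1 higher and 1 lower call in RPF and 2 and 1 in total RNA (all genes 5.35% and 5.13%, and 4.6% and 5.41%), and in Nat1-/- against WT 4 and 4 in RPF (21.1% each, beside 16.5% and 18.3% of all genes) and 4 and 3 in total RNA (21.1% and 15.8%, beside 16.2% and 18.9%).

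**Figure D4:**
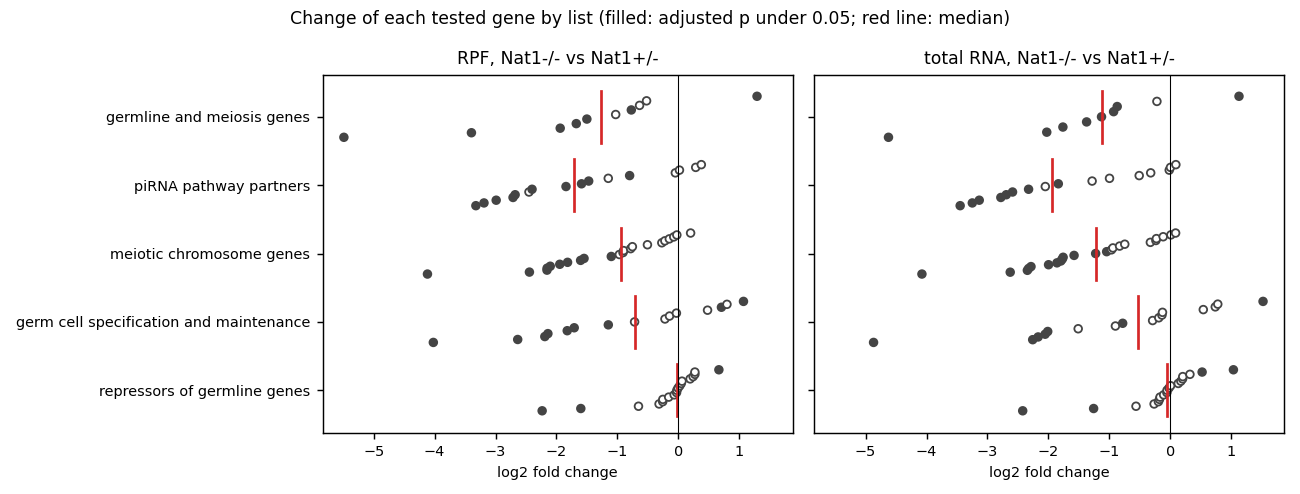
Log2 fold change of each tested gene in Nat1-/- against Nat1+/-, by list, for RPF (left) and total RNA (right); filled points passed an adjusted p of 0.05 and the red line is the list's median. Medians lie at -1.26, -1.72, -0.94, -0.72 and -0.02 in RPF from top to bottom, Tex101 included in the first, beside 0.02 for all genes tested.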

How the data were processed

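RPF and total RNA libraries were made from the same 8 cultures with a ribosome profiling kit, per the labels. Per the submitters' processing notes the tools used were TopHat2 2.1.0 and Bowtie2 2.2.8 (alignment tools), HTSeq 0.6.1 (read counting), DESeq2, cutadapt 1.9.1 and bcl2fastq 2.17, and the builds mm10 and GRCm38.p4. The sources used here do not say how strand and reads with several matches were handled. The deposited values are a signal: read counts that the authors divided by a size factor, 1 per library. Multiplying by the recovered factor gave whole reads for 100% of values (tolerance 0.001), and 3 reads, the limit a count of 0 allows, equal up to 4.90 normalised reads (counting error only).

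For each assay limma 3.58.1 (R 4.3.3, trend) was fitted to log2(value + 1) of genes with a mean of at least 10, with 3 genotype means over 8 libraries. TE was the interaction of assay and genotype over 16 libraries. A gene was called at an adjusted p under 0.05 (two-sided; Benjamini-Hochberg over all genes tested). The RPF and total RNA deviations of a culture from its genotype mean correlated (r = 0.384 to 0.821, 8 cultures), so a culture term pairs them in an alternative TE fit. The deviations of the 2 WT cultures mirror each other, so both give the same r (0.456). Those within a group of 3 are tied too. Alternatives were DESeq2 1.42.0 or edgeR 4.0.16 on recovered reads, other pseudocounts (0.5 and 5) and filters, equal library sums, a replicate block, the 5 cultures of shallow total RNA, and each culture left out. The scripts were tested on simulated data.

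The 10 genes, the lists and the tests were chosen with earlier results of these data known. Named beside the 10 genes are Eif4g2, up to 4 genes per pathway list with the smallest adjusted p for Nat1-/- against Nat1+/-, and the 5 genes with the most similar total RNA pattern. Promoter windows are from RefSeq (GRCm38.p6). Gene lengths were not used, so levels are not compared between genes.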

Additional observations from a re-analysis of the deposited data

How the results depend on the processing

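Of the 3 comparisons in each assay, the number of the 10 genes called changed by more than 1.5 times only where 1 culture was left out. With each culture left out in turn it ranged from 5 to 9 (RPF) and 5 to 10 (total RNA) for Nat1-/- against Nat1+/-, from 3 to 6 in each assay for Nat1-/- against WT, and from 0 to 6 (RPF) and 0 to 8 (total RNA) for Nat1+/- against WT. Under the other alternatives it ranged from 6 to 7 and 7 to 9, from 4 to 6 and 4 to 7, and from 4 to 7 and 5 to 8. These counts include Piwil4 and, wherever it was tested, Tex101, though their passing as lower in Nat1-/- is no support. Calls over all genes moved too. With a mutant culture left out they ran from 84 to 2634 in RPF and 186 to 2846 in total RNA for Nat1+/- against WT. For Nat1-/- against WT they ran from 3104 to 5122 and 3618 to 5216. For Nat1-/- against Nat1+/- they ran from 2821 to 5464 and 3608 to 6261. TE gave 0 calls among the 10 genes throughout, the culture term included; over all genes that term gave 2037, 158 and 146 calls in place of 75, 1 and 0. No value of the 10 genes reversed its direction after being called. Some calls were gained, among them those with DESeq2. For Nat1+/- against WT these were Ddx4 in RPF and Mael and Piwil4 in total RNA (adjusted p = 0.0354, 0.0058 and 0.0379). For Nat1-/- against WT they were Smc1b in RPF and Piwil2 and Ddx4 in total RNA (0.00717, 0.044 and 0.0415). Over all genes DESeq2 called 2519 of 13110 in RPF and 2559 of 13813 in total RNA for Nat1+/- against WT. For Nat1-/- against WT it called 5038 and 5421. The cause was not tested. Same-numbered Nat1+/- and Nat1-/- cultures did not deviate together (r = -0.191 to -0.0269 over 6 pairs). Deviations from a mean of 3 cultures are tied to one another, so this cannot show whether the numbers mark shared handling. With the replicate block 7, 5 and 4 of the genes were called in RPF and 8, 4 and 5 in total RNA for Nat1-/- against Nat1+/-, Nat1-/- against WT and Nat1+/- against WT. In the same order 4507, 3690 and 162 of all 13110 genes were called in RPF, and 5102, 4079 and 190 of 13813 in total RNA. The Nat1-/- values of Piwil4 and Tex101 rest on 30 reads or fewer per assay, which limits their fold changes. Both WT cultures and B12 had the deeper total RNA libraries. In total RNA, depth and genotype therefore coincide fully between WT and Nat1+/-, and partly in the comparisons with Nat1-/-.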
